A study of Mus musculus with 18 samples.

Results

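The response of 2 TFEB mutant clones of WEHI-231, #A-59 and #B-20, to 6 h of B cell antigen receptor (BCR) stimulation was compared with the response of parental WEHI-231 cells. It rests on the 12 of 18 libraries that hold parental cells and both clones at 0 and 6 h. WEHI-231 is an immature B cell lymphoma line of mouse origin. Its cells were either parental or carried TFEB mutations made with CRISPR/Cas9, and each mutant line was expanded from 1 cell, so that a feature of a clone need not come from TFEB. Untreated cells (0 h) were set against cells that had received 10 µg/ml of anti-mouse IgM F(ab')2 fragments for 6 h. Each of the 6 groups held 2 libraries, numbered replicate 1 and 2, from 2 independent experiments. The question was which genes answered the stimulus differently in the mutants. For each gene this is the interaction, the log2 change from 0 to 6 h in a clone minus the same change in parental cells. The value tested first was the mean of both clones' interaction terms. Both terms subtract the same parental libraries and are therefore not independent of each other.

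The BCR is a membrane immunoglobulin with the signalling chains CD79A and CD79B. Its ligation activates the kinases LYN, SYK and BTK, followed by calcium release, MAP kinases, PI3K and NF-κB. The lectin SIGLEC-G dampens this signal. TFEB is a basic helix-loop-helix leucine zipper transcription factor of the MiT/TFE family, known for inducing lysosome and autophagy genes through E-box sequences with the core CACGTG. In immature B cells such as WEHI-231, BCR ligation without a second signal leads to growth arrest and apoptosis.

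Library totals of the 12 libraries lay between 15014347 and 29655262 gene counts (median 21221039). Levels are TMM-scaled CPM, a library's counts for a gene set against its depth. Tfeb itself was at 79.2 to 84.3 CPM in the 4 parental libraries and at 25.5 to 30.4 CPM in #A-59. It was at 34.2 to 50.6 CPM in #B-20. Its mean interaction was 0.26 on the log2 scale (SE 0.13, adjusted p = 0.507), and counts do not show the sequence of the mutant transcripts. The 9 B cell markers summed to 6439 to 9298 CPM in every library, while the macrophage markers summed to at most 19.5 CPM, with Cd14, C1qa and C1qb at 0. Fibroblast markers reached at most 0.5 CPM and erythroid markers at most 2.8 CPM. The T cell markers summed to 89.1 to 186 CPM, with 2 of the 9 expressed highly enough to be tested. Replicate 2 of #B-20 at 6 h stood apart. Features that collect ribosomal RNA reads (mt-Rnr1, mt-Rnr2, Lars2 and Gm15564, picked after the data were seen) took 0.755% of its counts and 0.054 to 0.124% in the other 11. The replicates of #A-59 differed along the GC content of genes (Spearman's rho −0.471 at 0 h and −0.516 at 6 h, across genes). The tested values also followed GC content, with a rho of 0.178 for the mean interaction and 0.235 for the term of #A-59. It was 0.076 for the term of #B-20 and −0.004 for the parental response. Counts below are therefore also given without single libraries.

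Genes were tested with edgeR's quasi-likelihood F test, and p-values were adjusted by Benjamini-Hochberg. In all, 39 genes passed an FDR under 0.01 with a log2 difference beyond 1 in the mean interaction. These were 0.255% of the 15318 genes tested. The response was lower in the clones for 26 genes (0.17%) and higher for 13 (0.0849%). The higher genes were thus 33.3% of the calls, against 46.2% with DESeq2 and 49.4% without a filter on low counts. This share was 53.1% without replicate 1 of parental cells at 0 h (17 higher and 15 lower) and 19.2% without replicate 1 of parental cells at 6 h. Of the 26 lower genes, 25 had risen in parental cells at an FDR under 0.05, where 5.63% of all genes tested rose. Their median 6 h response was 1.57 in parental cells, against −0.02 for #A-59 and 0.10 for #B-20. For 12 of them neither clone's own response passed an FDR of 0.05. Of the 13 higher genes, 12 had fallen in parental cells (7.14% of all genes fell), with a median response of −1.22 in parental cells, against 0.23 for #A-59 and −0.16 for #B-20. The parental response enters the interaction with the opposite sign, so these counts describe the genes and are no separate test. The number called was 30 without replicate 2 of #B-20 at 6 h, of which 29 were among the 39. It was 17 without replicate 2 of parental cells at 0 h and 21 without replicate 2 of parental cells at 6 h. Of the 39 genes, 12 were called in every alternative fit that held them, and all 39 kept their sign in all of these fits.

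**Figure D1:**
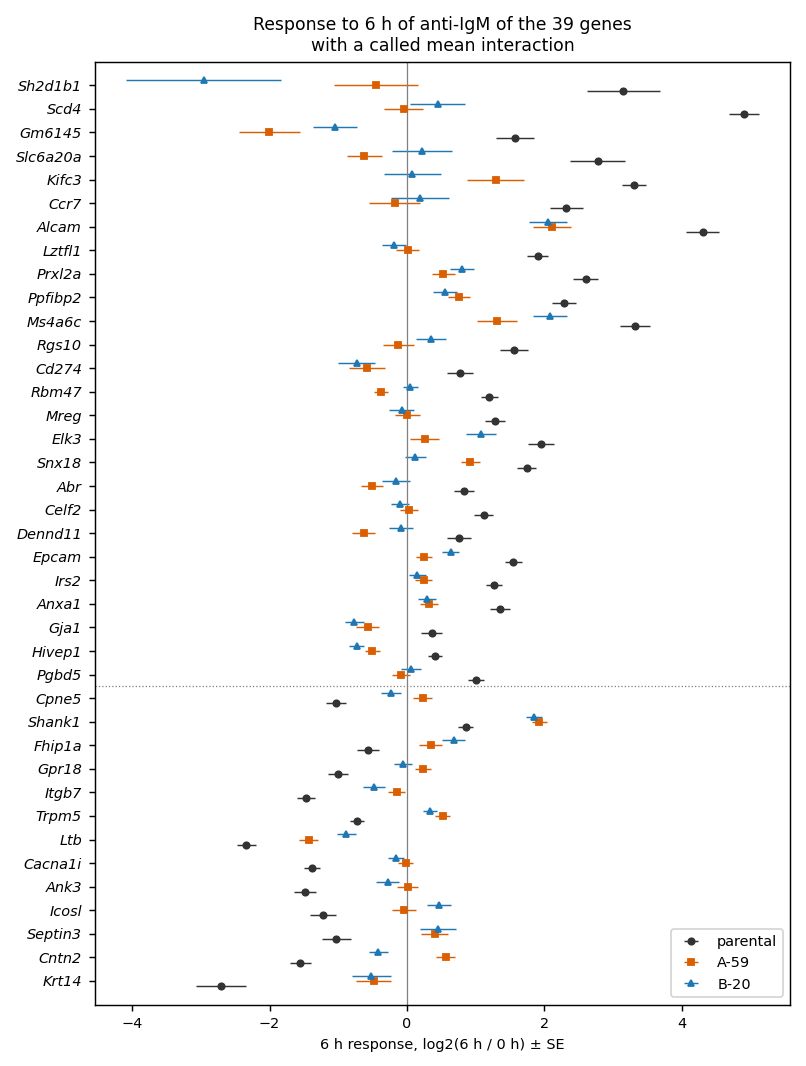
Change from 0 to 6 h of anti-IgM (x axis, log2 ± SE of the fit, 2 libraries per group) of the 39 genes with a called mean interaction, in parental cells (circles), #A-59 (squares) and #B-20 (triangles), ordered by the interaction, with the 26 lower genes above the dotted line and the 13 higher ones under it. Parental values lie to the right of both clones above the line, with a median of 1.57, and to the left of both clones under it, with a median of −1.22.

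The called genes are ordered below by what they are known to do, which is no test of these functions. Among the lower genes were enzymes and transporters. Scd4, a stearoyl-CoA desaturase that introduces a double bond into fatty acids, had the lowest adjusted p of all genes tested. Parental cells held 0.759 and 1.08 CPM of Scd4 before stimulation and 26.8 and 28.2 CPM after it. #A-59 held 0.914 and 1.24 CPM before and 1.10 and 0.906 CPM after stimulation, and #B-20 0.402 and 0.62 CPM before and 0.64 and 0.784 CPM after. All 4 clone libraries at 6 h were thus below both parental ones, whereas the genotypes overlapped at 0 h. The mean interaction was −4.71 (SE 0.36, adjusted p = 1.77e-06), with −4.96 in #A-59 and −4.46 in #B-20. Prxl2a, a peroxiredoxin-like protein, began lower and rose more steeply in parental cells, from 2.42 and 2.98 CPM to 15.1 and 17.6 CPM. #A-59 went from 8.97 and 8.91 CPM to 11.4 and 14.6 CPM and #B-20 from 8.03 and 8.49 CPM to 14.8 and 13.9 CPM. All 4 clone libraries lay above the parental ones at 0 h and below them at 6 h, and the mean interaction was −1.94 (SE 0.22, adjusted p = 1.29e-04). Slc6a20a, an amino acid transporter of the SLC6 family, rose 7.18-fold in parental cells, but only from 6 and 3 counts to 27 and 31 counts. These are 0.217 and 0.124 CPM, then 1.18 and 1.27 CPM. #A-59 held 2.74 and 3.21 CPM before and 1.82 and 2.05 CPM after stimulation. #B-20 held 0.469 and 0.496 CPM before and 0.492 and 0.653 CPM after. Slc6a20a was thus above parental cells in all 4 clone libraries at 0 h, and the genotypes overlapped at 6 h. Its mean interaction of −2.98 (SE 0.49, adjusted p = 0.00263) lost the call when any of the 4 parental libraries was left out (−3.45 to −2.67, adjusted p of up to 0.0396).

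Irs2, an adaptor that links insulin and cytokine receptors to PI3K, was the 1 gene that passed among the 22 tested members of the list on PI3K, FoxO and Sgk1. It rose from 160.0 and 163 CPM to 370.0 and 404 CPM in parental cells. In #A-59 it was at 36.7 and 32.3 CPM before and 41.8 and 40.2 CPM after stimulation, and in #B-20 at 40.0 and 36.7 CPM before and 46.6 and 38.3 CPM after. Both clones lay below parental cells at both times, and neither clone's response passed the test (adjusted p = 0.198 in #A-59 and 0.636 in #B-20). Its mean interaction was −1.06 (SE 0.15, adjusted p = 5.87e-04).

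Some lower genes are known from membrane traffic, cilia or the cytoskeleton. Lztfl1, which regulates traffic of the BBSome complex in cilia, rose from 26.9 and 23.8 CPM to 91.8 and 98.1 CPM in parental cells. It stayed at 11.4 and 15.6 CPM, then 11.1 and 16.3 CPM in #A-59, and at 14.8 and 15.7 CPM, then 14.1 and 12.7 CPM in #B-20. None of the clone libraries reached a parental one at either time. The interaction averaged −1.99 (SE 0.19, adjusted p = 3.98e-05), with −1.89 in #A-59 and −2.09 in #B-20. Slc6a20a and Lztfl1 lie 15.6 kb apart on chromosome 9, the closest pair among the called genes. Kifc3, a kinesin that moves towards microtubule minus ends, rose 9.89-fold in parental cells, from 9.44 and 10.5 CPM to 97.6 and 99.7 CPM. The clones held between 0.305 and 1.27 CPM in all 8 libraries, so that their own responses rest on 9 to 31 counts per library. Its mean interaction was −2.62 (SE 0.36, adjusted p = 6.80e-04), and without replicate 1 of #B-20 at 0 h it was −2.28 (adjusted p = 0.0113) and no longer called. The annotation of Kifc3 is not free of overlap, and non-stranded counts do not separate overlapping genes. Mreg, melanoregulin, which acts in organelle transport, went from 17.5 and 15.5 CPM to 37.4 and 42.9 CPM in parental cells and lay between 4.81 and 7.58 CPM in all 8 clone libraries. The mean interaction of Mreg was −1.32 (SE 0.19, adjusted p = 9.55e-04), and it was −1.24 and −1.22 and not called without replicate 2 of parental cells at 0 h or at 6 h. Ppfibp2, a liprin scaffold protein, rose 4.88-fold in parental cells and 1.67-fold in #A-59 and had a ratio of 1.47 in #B-20 (adjusted p = 0.0938), with a mean interaction of −1.63 (SE 0.20, adjusted p = 3.10e-04). Snx18, a sorting nexin, rose 3.35-fold in parental cells and 1.9-fold in #A-59, with a ratio of 1.08 in #B-20. Its mean interaction was −1.22 (adjusted p = 7.66e-04), and without replicate 2 of parental cells at 0 h its adjusted p was 0.01. Further called members of this kind were Abr (−1.16), Dennd11 (−1.12) and Anxa1 (−1.05). At 0 h all 4 clone libraries lay below both parental ones for Abr and above them for Dennd11 and, also at 6 h, for Anxa1. Each of these 3 lost the call in 4 to 10 of the 20 alternative fits.

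Several lower genes encode surface molecules, while Itgb7 and Icosl, from the same lists of adhesion and costimulation, were called in the higher direction. Alcam, an adhesion molecule and ligand of CD6, rose in all 3 genotypes. It went from 2.89 and 3.27 CPM to 57.1 and 64.6 CPM in parental cells, from 1.76 and 1.86 CPM to 6.63 and 9.24 CPM in #A-59, and from 2.41 and 2.36 CPM to 9.70 and 10.1 CPM in #B-20. These are a 19.7-fold rise in parental cells and rises of 4.38-fold and 4.16-fold in the clones. This gave a mean interaction of −2.22 (SE 0.31, adjusted p = 7.66e-04). Ccr7, the chemokine receptor that guides B cells to the T cell zone, rose from 1.30 and 1.53 CPM to 6.33 and 7.82 CPM in parental cells. In the clones it lay between 0.492 and 1.04 CPM in all 8 libraries, below every parental library. The mean interaction was −2.31 (SE 0.37, adjusted p = 0.00250), with −2.50 in #A-59 and −2.13 in #B-20. Without replicate 1 or 2 of parental cells at 0 h, replicate 2 of parental cells at 6 h or replicate 1 of #B-20 at 0 h, it lay between −2.44 and −2.16, with an adjusted p of 0.012 to 0.0183. Cd274, which encodes the checkpoint ligand PD-L1, was at 9.37 and 12.2 CPM in parental cells at 0 h and at 16.8 and 19.9 CPM at 6 h. In the clones the level was 3.0 to 5.29 CPM at 0 h and 2.23 to 2.94 CPM at 6 h, where neither clone's own change passed the test. The mean interaction of −1.42 (SE 0.27, adjusted p = 0.00874) lost its call in 10 of the 20 alternative fits, with an adjusted p of up to 0.0644 (without replicate 2 of parental cells at 6 h), and Plgrkt overlaps the gene. Epcam, an epithelial adhesion molecule, rose 2.92-fold in parental cells and 1.56-fold in #B-20, with a ratio of 1.19 in #A-59 (mean interaction −1.11, adjusted p = 5.58e-04). Ms4a6c, a member of the membrane-spanning 4A family, rose 10.0-fold in parental cells, 2.38-fold in #A-59 and 4.28-fold in #B-20 (mean interaction −1.62). It lost the call in 9 of 20 alternative fits. Cd44, the hyaluronan receptor, passed an FDR of 0.05 with a difference below 1 in size. It rose 1.73-fold in parental cells and had ratios of 0.927 in #A-59 and 0.948 in #B-20 (mean interaction −0.88, adjusted p = 4.25e-04), past that FDR in all 20 alternative fits. Gja1, a gap junction connexin, had a ratio of 1.28 in parental cells (adjusted p = 0.131) and fell to 0.671-fold and 0.588-fold in the clones (−1.03). It lost the call in 7 of 20 alternative fits, with an adjusted p of up to 0.0587. Sh2d1b1, a SAP family adaptor, had 30 and 29 counts in parental cells at 6 h and at most 7 in any clone library at 6 h. With 1 and 0 counts in #B-20 at 6 h its fitted interaction is no bound, and it was called in 11 of the 18 alternative fits that gave it an adjusted p.

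Regulators of transcription and RNA were also among the lower genes. Rbm47, an RNA-binding protein of splicing and editing, was higher in the clones at both times. It rose from 3.36 and 3.6 CPM to 7.95 and 8.02 CPM in parental cells. #A-59 held 33.4 and 33.9 CPM, then 27.0 and 24.7 CPM, and #B-20 held 17.7 and 17.9 CPM, then 18.4 CPM in both libraries. The fall in #A-59 passed an FDR of 0.05 (adjusted p = 0.0164) and the change in #B-20 did not (adjusted p = 0.883). Its mean interaction was −1.36 (SE 0.14, adjusted p = 9.63e-05). Celf2, another RNA-binding protein of splicing, rose 2.17-fold in parental cells against ratios of 1.02 and 0.935 in the clones. At 0 h Celf2 was at 43.9 and 51.6 CPM in parental cells and higher in all 4 clone libraries. At 6 h it was at 98.8 and 108 CPM in parental cells, 66.0 and 96.3 CPM in #A-59 and 144 and 147 CPM in #B-20. Its mean interaction of −1.15 (adjusted p = 8.79e-04) was −1.05 and −1.09 and not called without replicate 1 of parental cells at 0 h or replicate 2 at 6 h. Elk3, an ETS factor of the ternary complex type, rose 3.86-fold in parental cells and 2.11-fold in #B-20, with a ratio of 1.21 in #A-59 (−1.28). Rgs10, a GTPase-activating protein for G protein alpha subunits, rose 2.93-fold in parental cells against ratios of 0.92 and 1.28 (−1.44). Elk3 lost the call in 13 and Rgs10 in 10 of 20 alternative fits. Hivep1, a zinc finger protein that binds κB-like sites, rose 1.33-fold in parental cells and fell to 0.707-fold and 0.603-fold in the clones (−1.02). Pgbd5, a gene derived from a piggyBac transposase, rose 2.0-fold in parental cells against ratios of 0.941 and 1.04 (−1.01). Hivep1 lost the call in 3 and Pgbd5 in 6 of 20 alternative fits. Gm6145, annotated without a described function, rose from 2.21 and 2.94 CPM to 6.07 and 9.17 CPM in parental cells and went from 1.42 and 2.33 CPM to 0.265 and 0.725 CPM in #A-59. In #B-20 it went from 4.02 and 4.65 CPM to 1.82 and 2.42 CPM, and the mean interaction was −3.10 (SE 0.39, adjusted p = 3.10e-04).

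**Figure D2:**
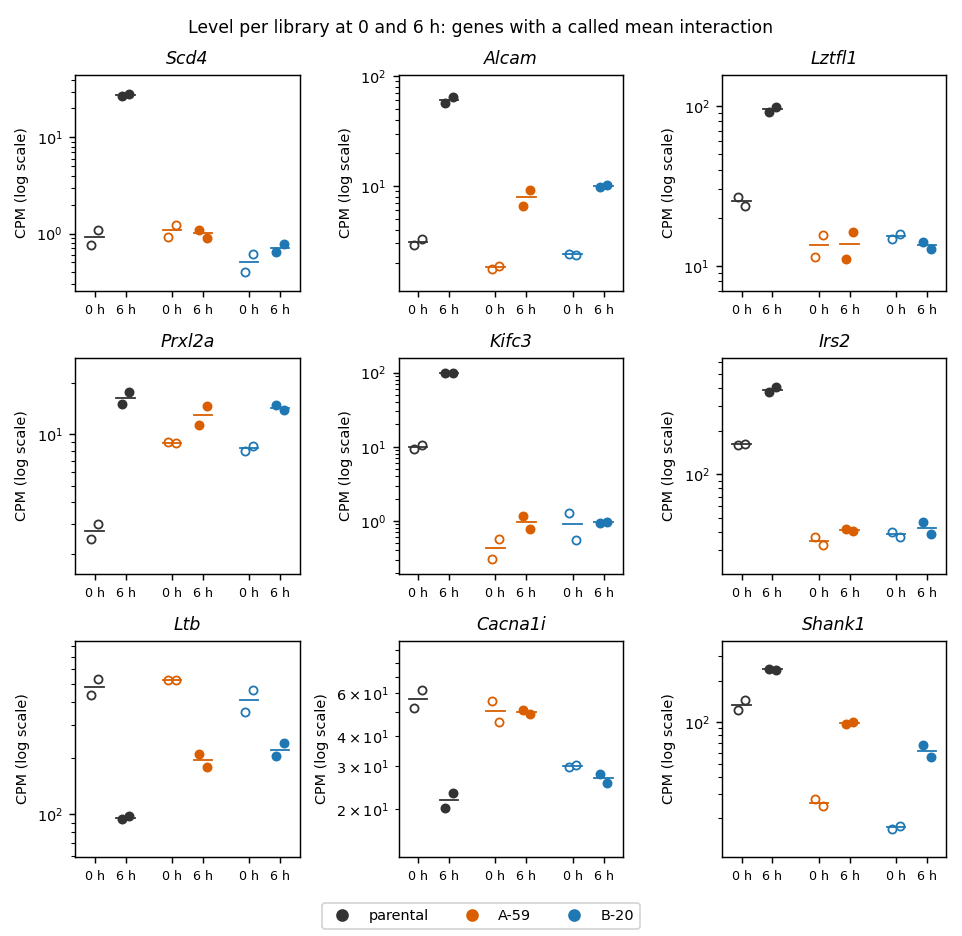
CPM (log scale) in each library at 0 h (open) and 6 h (filled) for 9 of the 39 genes, with the mean of 2 libraries as a line. Scd4 reached 26.8 and 28.2 CPM in stimulated parental cells and at most 1.10 CPM in stimulated clones, Kifc3 and Irs2 were low in the clones at both times, and Ltb fell in all 3 genotypes but least in #B-20.

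The 13 genes with a higher response in the clones held several surface and signalling molecules of lymphocytes. Ltb, which encodes lymphotoxin beta, fell in every genotype. Parental cells went from 435 and 534 CPM to 94.0 and 97.7 CPM. In #A-59 it went from 527 and 524 CPM to 211 and 179 CPM, and in #B-20 from 353 and 465 CPM to 205 and 240.0 CPM. The genotypes overlapped at 0 h, and at 6 h all clone libraries were above the parental ones. The interaction averaged 1.18 (SE 0.17, adjusted p = 7.66e-04). Without replicate 2 of parental cells at 0 h it was 1.02 (adjusted p = 0.012), and without replicate 1 of parental cells at 6 h 1.15 (adjusted p = 0.0112), so that the call was lost. Icosl, the ligand of the T cell costimulator ICOS, fell from 6.33 and 6.70 CPM to 2.88 and 2.70 CPM in parental cells. #A-59 held 5.25 and 5.28 CPM before and 5.19 and 5.01 CPM after stimulation, and #B-20 6.36 and 8.18 CPM before and 10.5 and 9.67 CPM after. This gave a mean interaction of 1.43 (SE 0.22, adjusted p = 0.00184), and 1.38 to 1.47 with an adjusted p of 0.0163 to 0.0284 without replicate 1 or 2 of parental cells at 6 h or replicate 2 at 0 h. Itgb7, the integrin chain of gut homing receptors, fell from 44.4 and 56.1 CPM to 16.5 and 19.8 CPM in parental cells. It was at 32.8 and 33.4 CPM, then 31.5 and 28.1 CPM in #A-59, whereas both #B-20 libraries held 10.7 CPM at 0 h, then 7.14 and 8.23 CPM. For Itgb7 the mean interaction was 1.15 (SE 0.16, adjusted p = 6.80e-04). The call was lost without replicate 1 of parental cells at 6 h (1.02, adjusted p = 0.0106) or replicate 2 at 0 h (0.97). Gpr18, a G protein-coupled receptor of lymphocytes, fell to 0.497-fold in parental cells, with ratios of 1.18 and 0.962 in the clones (mean interaction 1.10). Its call was lost without replicate 1 or 2 of parental cells at 6 h (1.09 each) or replicate 2 at 0 h (0.88), and Ubac2 overlaps it.

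Among the other higher genes, Cacna1i and Trpm5 encode channels and Ank3 and Shank1 scaffold proteins, whereas none of the 20 genes on the list of calcium and NFAT passed an FDR of 0.05. Cacna1i, a T-type calcium channel subunit, fell from 52.1 and 61.5 CPM to 20.3 and 23.3 CPM in parental cells. It was at 55.5 and 45.8 CPM, then 51.1 and 49.0 CPM in #A-59, and at 29.7 and 30.3 CPM, then 27.8 and 25.7 CPM in #B-20. The change passed the test in parental cells and in neither clone (adjusted p = 0.938 in #A-59 and 0.594 in #B-20). The mean interaction was 1.29 (SE 0.14, adjusted p = 1.10e-04). Trpm5, a calcium-activated cation channel, fell from 474 and 505 CPM to 287 and 302 CPM in parental cells. It rose from 116 and 95.6 CPM to 163 and 141 CPM in #A-59, and lay at 155 and 141 CPM before and 199 and 175 CPM after stimulation in #B-20. All clone libraries remained below all parental ones, and the mean interaction was 1.16 (SE 0.13, adjusted p = 1.10e-04). Cntn2, a contactin adhesion protein, fell to 0.341-fold in parental cells, rose 1.48-fold in #A-59 and had a ratio of 0.75 in #B-20 (1.63, adjusted p = 1.10e-04). Ank3, an ankyrin that anchors membrane proteins to spectrin, fell to 0.357-fold in parental cells, with ratios of 1.0 and 0.824 in the clones (1.35, adjusted p = 9.43e-04). Without replicate 1 of parental cells at 6 h it was 1.20 and without replicate 2 at 0 h 1.24, both not called. Septin3 (1.45), Fhip1a (1.08), Cpne5, a copine (1.03), and Krt14, a keratin (2.21), completed this direction. They lost the call in 8, 11, 10 and 12 of their alternative fits. Shank1, a postsynaptic scaffold protein, was the exception, since it rose in every genotype. Its level went from 122 and 145 CPM to 244 and 239 CPM in parental cells, from 27.5 and 24.5 CPM to 97.1 and 101 CPM in #A-59, and from 16.7 and 17.7 CPM to 68.5 and 55.5 CPM in #B-20. The clones were below parental cells at both times, and the rise was 1.81-fold in parental cells against 3.81-fold and 3.61-fold (1.04, adjusted p = 3.16e-04). With the correction for GC content its interaction was 0.93, and it fell to 0.90 to 0.99 without replicate 2 of parental cells at 0 h, replicate 1 of #B-20 at 6 h or replicate 2 of #A-59 at 0 h, each under the limit on size.

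Each clone's own term was also tested. In #A-59 52 genes were called (0.339% of those tested) and in #B-20 20 (0.131%). The called sets shared 12 genes (0.0783% of those tested), 10 lower (Scd4, Lztfl1, Prxl2a, Gm6145, Alcam, Ppfibp2, Rbm47, Mreg, Celf2 and Irs2) and 2 higher (Cacna1i and Trpm5), which is 23.1% of the 52 and 60.0% of the 20. Both sets rest on the same parental libraries. The count in #A-59 was 13 without its replicate 2 at 0 h and 104 without its replicate 2 at 6 h. The count in #B-20 was 2 without replicate 2 of parental cells at 0 h and 8 without its own replicate 2 at 6 h.

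**Figure D3:**
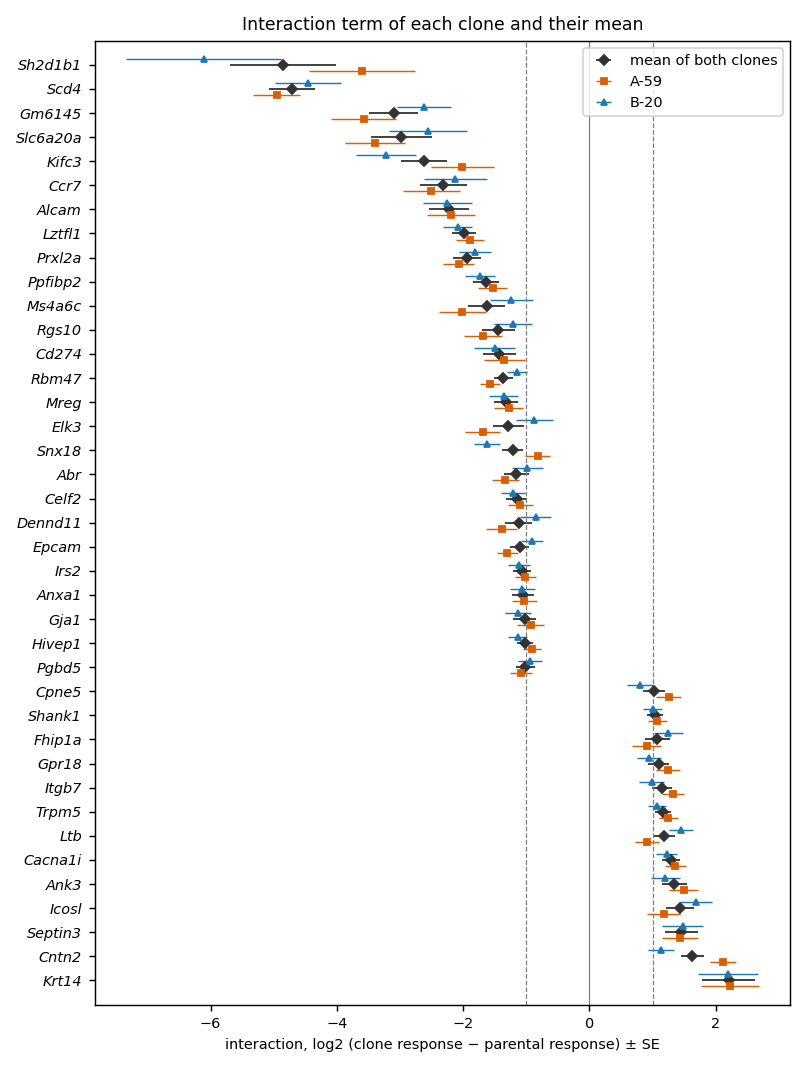
Interaction (x axis, log2 difference between clone and parental response, ± SE) of the 39 called genes as the mean of both clones (diamonds), in #A-59 (squares) and in #B-20 (triangles), with the limits of 1 and −1 dashed. The mean lies between −4.86 for Sh2d1b1 and 2.21 for Krt14, with −4.71 for Scd4. The widest SE belong to Sh2d1b1, which had 1 and 0 counts in #B-20 at 6 h.

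The log2 difference between the responses of the clones is set by the clone libraries alone, while its test shares the estimate of spread with all groups. It was called for 1 gene (0.00653% of those tested), Fcmr, the Fc receptor for IgM. Fcmr was at 61.1 and 70.3 CPM in parental cells at 0 h and at 187 and 188 CPM at 6 h. In #A-59 it went from 35.3 and 31.7 CPM to 42.2 CPM in both libraries, and in #B-20 from 9.37 and 9.11 CPM to 33.7 and 32.2 CPM. #B-20 thus started lowest and rose 3.56-fold, near the 2.85-fold of parental cells, while #A-59 rose 1.26-fold. The response of #A-59 minus that of #B-20 was −1.50 (adjusted p = 4.59e-04). Without replicate 2 of #B-20 at 0 h it was −1.48 (adjusted p = 0.0134) and not called, and it was called in the other 19 alternative fits. The number of genes called was 9 without replicate 2 of #A-59 at 6 h, 6 with the replicate block, 7 with DESeq2 and 16 without a filter on low counts. At an FDR under 0.05 the clones differed in 8 genes (0.0522% of those tested), Fcmr, Wnt16, Gvin4, Rnf122, Cmah, Cd180, Hdac9 and St3gal6, all with the lower value in #A-59. This list was read off after the values were seen.

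At an FDR under 0.05 with no limit on size, 239 genes (1.56% of those tested) differed in the mean interaction, 146 higher (0.953%) and 93 lower (0.607%). The count was 76 without replicate 2 of parental cells at 0 h, 548 without replicate 2 of #A-59 at 6 h and 595 with the replicate block and GC offset, so that the list counts below shift with the libraries used. Of the 20 tested BCR chains and coreceptors, 4 were higher and none lower, Siglecg, Cd79b and Pirb among them, and the median of the list was 0.23 against 0.00 for all genes. Some other lists treated below had medians further from 0. These were 0.38 for MHC class II and loading, 0.38 for cytokines and chemokines and 0.30 for interferon-stimulated genes. The median was −0.31 for chemokine and positioning receptors. Siglecg, the inhibitory lectin, was at 20.1 and 20.6 CPM in parental cells at 0 h and at 12 and 11.8 CPM at 6 h. #A-59 held 54.0 and 55.5 CPM before and 62.0 and 67.2 CPM after stimulation, and #B-20 47.0 and 52.3 CPM before and 39.4 and 43.8 CPM after. The mean interaction of Siglecg was 0.77 (SE 0.11, adjusted p = 9.55e-04) and passed this FDR in all 20 alternative fits. Cd79b, a signalling chain of the BCR, had a mean interaction of 0.48 (adjusted p = 0.0299) and Pirb, an inhibitory receptor, 0.72 (adjusted p = 0.0131), lost in 10 and 2 of 20 alternative fits. Without replicate 2 of #B-20 at 6 h 2 members of the list passed, and without replicate 2 of parental cells at 0 h or replicate 1 at 6 h 1 passed.

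Of the 30 tested genes of proximal BCR signalling, Syk alone passed (median of the list 0.11). This kinase binds phosphorylated CD79A and CD79B. It fell from 909 and 1015 CPM to 398 and 392 CPM in parental cells, from 1187 and 1161 CPM to 831 and 849 CPM in #A-59, and from 954 and 1022 CPM to 638 and 642 CPM in #B-20. At 6 h all clone libraries were above the parental ones, and at 0 h the genotypes overlapped. The interaction averaged 0.73 (SE 0.09, adjusted p = 3.22e-04), with 0.80 for #A-59 and 0.66 for #B-20. It passed in all 20 alternative fits.

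**Figure D4:**
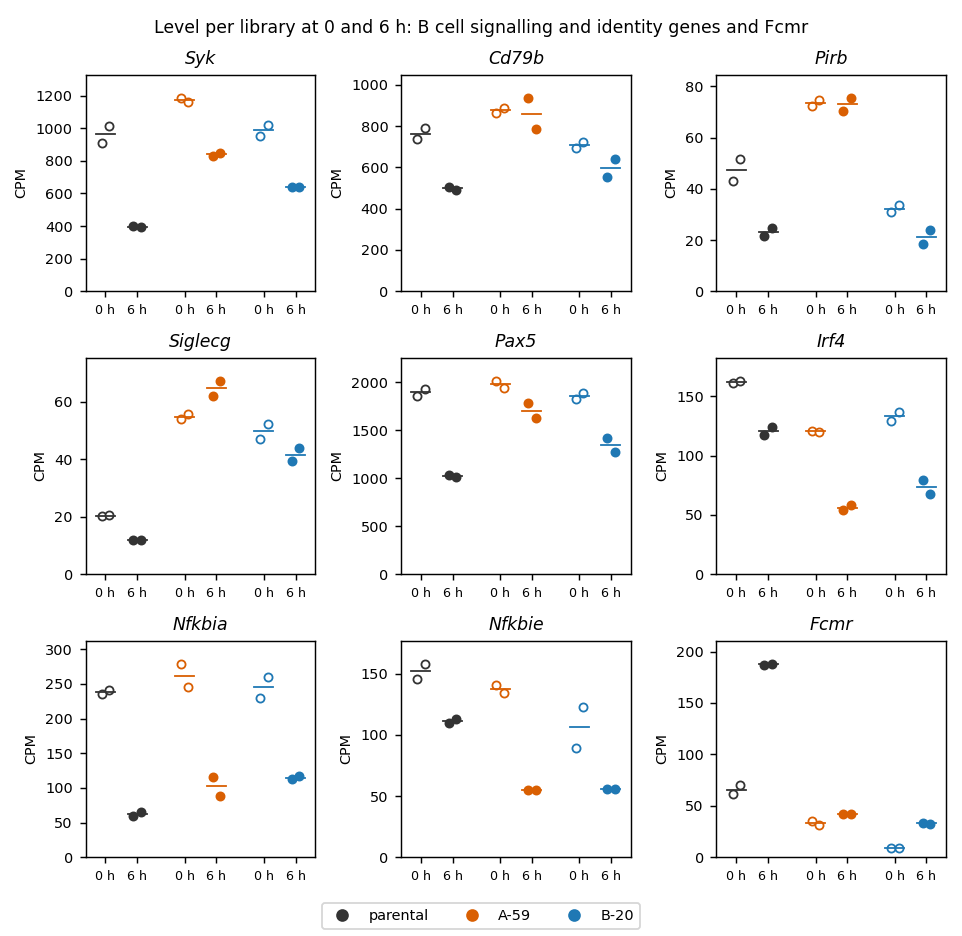
CPM in each library at 0 h (open) and 6 h (filled) for 8 B cell signalling and identity genes and Fcmr, with the mean of 2 libraries as a line. Syk and Pax5 lie higher in stimulated clones than in stimulated parental cells, Irf4 and Nfkbie lie lower, and Fcmr rises 3.56-fold in #B-20 against 1.26-fold in #A-59.

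NF-κB subunits and feedback genes moved in both directions, with 3 higher and 1 lower among 22 tested (median 0.06). Nfkbia, the inhibitor IκBα, fell from 235 and 242 CPM to 60.0 and 64.9 CPM in parental cells and to 116 and 88.5 CPM in #A-59 and 113 and 117 CPM in #B-20, from a start that overlapped. For Nfkbia the mean interaction was 0.72 (SE 0.16, adjusted p = 0.0308). Birc3, an inhibitor of apoptosis protein, had 0.52 (adjusted p = 0.0254) and the kinase gene Map3k8 0.76 (adjusted p = 0.0174), both from a smaller fall in the clones. Nfkbie, the inhibitor IκBε, fell more in the clones, to 0.400-fold in #A-59 and 0.525-fold in #B-20 against 0.732-fold in parental cells (−0.68, adjusted p = 0.0152). Without replicate 2 of #B-20 at 6 h 2 members passed, and none passed when any of the 4 parental libraries was left out.

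Among 27 tested B cell identity and plasma cell factors, 2 were higher and 2 lower (median 0.03). Pax5, which maintains B cell identity, fell from 1862 and 1934 CPM to 1034 and 1017 CPM in parental cells. It was at 2016 and 1946 CPM, then 1780 and 1627 CPM in #A-59, and at 1823 and 1884 CPM, then 1419 and 1271 CPM in #B-20. The mean interaction of Pax5 was 0.55 (SE 0.11, adjusted p = 0.0101), and that of Spib, an ETS factor of B cells, was 0.39 (adjusted p = 0.0352). Irf4, which drives plasma cell differentiation, fell to 0.465-fold in #A-59 and 0.552-fold in #B-20 against 0.743-fold in parental cells (−0.55, adjusted p = 0.032). Mef2c, a MADS box factor that acts in B cell proliferation, had −0.53 (adjusted p = 0.0272), with −0.86 in #A-59 and −0.20 in #B-20. Spib was lost in 13 and Mef2c in 8 of 20 alternative fits. Without replicate 2 of #B-20 at 6 h 2 members passed, and without either parental library at 6 h or replicate 2 at 0 h none did.

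Among 27 tested activation and costimulation molecules, Cd40 and Icosl were higher and Cd274 and Cd44 lower. Cd40, the receptor for T cell help, fell to 0.279-fold in parental cells, to 0.461-fold in #A-59 and 0.485-fold in #B-20 (0.76, adjusted p = 0.0274). Among 16 tested chemokine and positioning receptors, Ccr7 was lower, and Ebi3, a cytokine subunit that the list also holds, was higher (0.69, adjusted p = 0.0201). Of 25 integrins and adhesion molecules, Itgb7, L1cam and Selplg were higher and Alcam and Cd44 lower. Of 12 cytokines and chemokines, Ltb alone passed. Of the 4 activation molecules 2 remained without replicate 1 of parental cells at 0 h or replicate 2 at 6 h, and of the 5 adhesion molecules 3 remained without any 1 of the 4 parental libraries or without replicate 2 of #B-20 at 6 h. An FDR of 0.05 was lost by Cd40 in 9, Ebi3 in 7, Selplg in 10 and L1cam in 14 of 20 alternative fits. Ltb passed it in all 20.

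Genes of the pathways TFEB is known for were counted at the same FDR, which 1.56% of all genes tested passed. Of 51 tested lysosome genes 2 were lower and none higher (3.92%, median −0.09). In parental cells 22 of the 51 rose, where 5.63% of all genes tested rose. One of the lower genes was Ctsb, the protease cathepsin B (−0.41, adjusted p = 0.0362), and it lost the call in 12 of 20 alternative fits. Of 44 autophagy genes 1 passed (2.27%). This was Optn, an autophagy receptor, which was higher (0.43, adjusted p = 0.0199) and was lost in 9 fits. None of 18 genes of MiT/TFE and folliculin-Rag signalling passed. Tfe3 fell in all 3 genotypes, to 0.618-fold, 0.638-fold and 0.65-fold, with a mean interaction of 0.06 (SE 0.12, adjusted p = 0.916).

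Lists of MHC class II and its loading (14 tested), interferon-stimulated genes (29), caspases and necroptosis (20), DNA replication (30) and immediate early factors (25) held 1 gene each at an FDR under 0.05. Among these were H2-DMa (0.71) and Gbp2 (0.81) on the higher side, and Casp4 (−0.63) and Irf4 on the lower side. None of these lists held a gene without replicate 1 of parental cells at 6 h or replicate 2 at 0 or 6 h, and over all 20 alternative fits H2-DMa was lost in 3, Gbp2 in 4 and Casp4 and Irf4 in 8 each. Brd2 overlaps H2-DMa. The lists of ERK feedback (12), calcium and NFAT (20), cytokine signal feedback (15), the Bcl-2 family (21), p53 targets (17), G1 cyclins and inhibitors (19), mitosis (30), Myc and ribosome biogenesis (42), cholesterol and fatty acid synthesis (29), glycolysis and hypoxia (31), ER stress and ATF4 (30) and TGF-β (24) held none. Their medians lay between −0.20 and 0.07. An FDR that was missed does not show that a gene responded alike.

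Of 19 tested genes that the study names, Ccr7 alone passed in the mean interaction, while several of the others differed between genotypes at both times. Bcl2l15, a Bcl-2 family member, was at 239 to 259 CPM in the 4 parental libraries and at 3.56 to 9.04 CPM in the 8 clone libraries, with a mean interaction of 0.22 (SE 0.16, adjusted p = 0.652). Ripk3, the kinase of necroptosis, was at 16.6 to 19.2 CPM against 0.246 to 1.40 CPM (0.63, SE 0.42, adjusted p = 0.630). Nrp2, a semaphorin coreceptor, was at 6.25 to 8.72 CPM in parental cells and at 86.1 to 159 CPM in the clones (−0.11, SE 0.18, adjusted p = 0.891). Ptpn13, a tyrosine phosphatase, had 0.69 (SE 0.23, adjusted p = 0.182) and Myo1d, a myosin, −0.52 (SE 0.15, adjusted p = 0.102). Cxcr4, a chemokine receptor, was at 51.0 to 72.2 CPM in parental cells and at 8.59 to 19.7 CPM in the clones, with an SE of 0.28 around a mean interaction next to 0. Mitf had −0.16 (adjusted p = 0.894), Ciita, the activator of MHC class II genes, 0.38 (adjusted p = 0.593), and Bcl2l1 0.48 (adjusted p = 0.401). H2-Aa had −0.75 (SE 0.33, adjusted p = 0.407), H2-Eb1 −0.46 (adjusted p = 0.433) and Cd74 0.15 (adjusted p = 0.782). The interactions of Frmd4a (adjusted p = 1.0), Sgk1 (adjusted p = 0.937) and H2-Ab1 (adjusted p = 0.856) were not called either. Serpinb6b rose in parental cells from 17 and 21 counts to 254 and 294 counts, whereas the clones held at most 3 counts in each library at 0 and 6 h, so that no interaction can be read for it. Il7r and Hrk had at most 2 counts per library and were not tested.

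The libraries of 18 h show where these levels stood later. They do not enter the value of a 6 h interaction, but they share the estimate of spread behind its test. For 10 of the 26 lower genes all 4 clone libraries lay above both parental ones at 0 h (13.4% of all genes tested). This held for 2 at 6 h (15.6%) and for 6 at 18 h (13.4%). All 4 clone libraries lay below both parental ones for 19 of the 26 at 6 h (18.0%). They did so for 11 at 0 h (15.7%) and for 12 at 18 h (15.9%). These genes were called on the libraries of 0 and 6 h, which favours this order at 6 h. The counts therefore describe the genes and are no separate test. In parental cells at 18 h Scd4 was at 2.59 and 2.85 CPM, Kifc3 at 14.4 and 17.5 CPM, Alcam at 7.58 and 9.08 CPM and Prxl2a at 2.94 and 4.05 CPM. Lztfl1 stood at 118 and 116 CPM and Ccr7 at 7.31 and 8.35 CPM in parental cells at 18 h. In the clones Lztfl1 was then at 11.9 to 20.7 CPM, while Ccr7 had reached 2.10 to 3.20 CPM. Elk3 and Rgs10 overlapped between the genotypes at 18 h. Elk3 was at 12 and 9.59 CPM in parental cells and at 7.54 to 11.2 CPM in the clones, and Rgs10 at 4.91 and 5.86 CPM against 4.94 to 7.68 CPM. Of the 13 higher genes, all 4 clone libraries were below the parental ones for 5 at 0 h (15.7%). They were below for 2 at 6 h (18.0%) and for 5 at 18 h (15.9%). All 4 were above the parental ones for 8 at 6 h (15.6%) and for 3 at 0 h and at 18 h (13.4% each). Here too the way the genes were called favours the order at 6 h. Cacna1i was at 121 and 128 CPM in parental cells at 18 h and at 57.7 to 125 CPM in the clones, and Itgb7 at 174 and 189 CPM against 35.4 to 127 CPM.

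Promoter sequence was examined because TFEB binds E-boxes and the BCR activates AP-1 and NF-κB. RefSeq windows of GRCm38.p6, from 250 bases before to 50 bases after a gene start, were held for 24 of the 26 lower and 9 of the 13 higher genes. The E-box CACGTG was found in 5 of the 24 lower genes (Epcam, Irs2, Lztfl1, Prxl2a and Snx18) and in none of the 9 higher ones, against 11.5% of tested genes with a window. The AP-1 letters TGANTCA stood in 5 of 24 (Abr, Celf2, Gja1, Prxl2a and Sh2d1b1) and none of 9, against 5.94%. The κB letters, GGGNN followed by TTTCC, stood in none of 24 and 2 of 9 (Krt14 and Ltb), against 2.04%. Both strands were searched, no matches of different motifs overlap in the windows shown, and a gene with several starts had several windows and more letters to match. The windows of Lztfl1, Prxl2a and Irs2 are shown for their E-boxes, that of Ltb for its κB letters and that of Scd4 as the gene with the lowest p, which held none of the 3. They read 5′ to 3′ along the gene, with the matches in capitals. The E-boxes of Lztfl1 begin 47 and 5 bases before the start and that of Irs2 44 bases before it. That of Prxl2a begins 28 bases before the start in the window shown and 57 bases before another of its starts. Further Prxl2a windows, not shown, held no E-box, and its AP-1 letters lie in some of these. The κB letters of Ltb, on the reverse strand, begin 87 bases before its start. A match describes the letters and shows neither binding nor a cause of the response.
Lztfl1 (chr9:123717576-123717875, minus strand): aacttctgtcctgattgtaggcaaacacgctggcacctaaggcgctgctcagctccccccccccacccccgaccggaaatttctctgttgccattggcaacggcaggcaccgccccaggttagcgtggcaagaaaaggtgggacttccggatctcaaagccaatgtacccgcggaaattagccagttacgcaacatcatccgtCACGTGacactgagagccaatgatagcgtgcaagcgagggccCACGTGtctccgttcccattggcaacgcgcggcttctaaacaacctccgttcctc
Prxl2a (chr14:41013784-41014083, minus strand): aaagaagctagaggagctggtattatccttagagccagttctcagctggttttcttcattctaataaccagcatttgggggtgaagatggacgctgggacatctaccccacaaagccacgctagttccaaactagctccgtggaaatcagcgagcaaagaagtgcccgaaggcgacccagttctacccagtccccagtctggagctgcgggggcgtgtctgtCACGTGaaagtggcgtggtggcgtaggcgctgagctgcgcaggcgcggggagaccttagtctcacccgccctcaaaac
Irs2 (chr8:11008880-11009179, minus strand): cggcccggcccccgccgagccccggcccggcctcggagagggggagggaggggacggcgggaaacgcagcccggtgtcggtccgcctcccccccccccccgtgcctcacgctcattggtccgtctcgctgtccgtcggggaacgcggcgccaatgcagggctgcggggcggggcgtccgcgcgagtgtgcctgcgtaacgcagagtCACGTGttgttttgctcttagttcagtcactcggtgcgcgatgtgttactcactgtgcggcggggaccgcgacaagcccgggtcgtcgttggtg
Ltb (chr17:35194257-35194556, plus strand): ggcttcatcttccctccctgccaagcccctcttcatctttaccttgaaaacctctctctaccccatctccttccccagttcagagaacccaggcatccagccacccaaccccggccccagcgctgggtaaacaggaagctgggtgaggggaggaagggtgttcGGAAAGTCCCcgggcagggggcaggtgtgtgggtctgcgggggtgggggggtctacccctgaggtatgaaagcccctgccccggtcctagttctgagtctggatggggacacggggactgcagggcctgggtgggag
Scd4 (chr19:44333076-44333375, plus strand): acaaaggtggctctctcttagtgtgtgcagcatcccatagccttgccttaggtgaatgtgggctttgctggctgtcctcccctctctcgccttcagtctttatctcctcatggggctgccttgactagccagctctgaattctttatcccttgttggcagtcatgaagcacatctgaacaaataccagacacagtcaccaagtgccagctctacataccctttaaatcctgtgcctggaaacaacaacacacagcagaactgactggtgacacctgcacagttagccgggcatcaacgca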

How the data were processed

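RNA was sequenced from 18 libraries, of which the 12 of 0 and 6 h enter the comparisons and those of 18 h share the estimate of spread. Per the submitters' processing notes and the study's methods, the authors used bcl2fastq, STAR and featureCounts on GRCm38, and deposited raw counts per gene without normalization. The notes give bcl2fastq 2.20.0.422, STAR 2.5 and featureCounts 1.5.0-p1, whereas the methods name an earlier bcl2fastq version. Libraries were not stranded, so reads of overlapping genes cannot be separated, and close paralogs (Sh2d1b1, Ms4a6c, Gvin4, Scd4) may share reads.

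Counts were filtered with edgeR's filterByExpr, scaled by TMM and tested with edgeR 4.0.16 (R 4.3.3, limma 3.58.1) by the quasi-likelihood test over 9 group means, with Benjamini-Hochberg adjustment over 15318 genes. A call needed an FDR under 0.01 and a log2 difference beyond 1. CPM values are TMM-scaled, and folds are ratios of mean CPM. Symbols and GC content came from GENCODE vM39 by identifier (93.2% of genes, 99.6% of counts), coordinates and promoter windows from RefSeq for GRCm38.p6. On simulated data with 200 genes changed by a log2 of 2 in the mean interaction, beyond most called here, edgeR called 199 of them and 1 unchanged gene among 14829, and DESeq2 called 199 and 0 unchanged genes among 15318. The changed genes were drawn from those above a count limit, and all groups otherwise had the same level. The simulation held no GC trend and no outlying library, so it gives no error rate for the calls reported here.

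Named are Tfeb and genes the study names, the up to 15 genes per direction with the largest called mean interaction at a mean of at least 1 CPM, list members past either threshold (at most 4 per list and direction), genes called in both clones' own terms, and those called in the difference between clones. Other called genes were named after their values were seen, and some genes that the rule names are not reported here. Members and lists were chosen with earlier results of these data known. Alternatives were DESeq2 1.42.0, its size factors, other filters, the 12 libraries alone, a replicate block, a GC offset and leaving out each library. Counts of list members under them were added after the data were seen. The labels number the replicates without saying which cultures they share, so p-values measure the spread between these libraries.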

Additional observations from a re-analysis of the deposited data

Results flagged for a closer look

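These results stood out because the 6 h response differed between genotypes by a test of the difference itself. The mean of both clones' terms differed from the parental response in 39 genes. The term of #A-59 differed in 52 genes and that of #B-20 in 20 genes. The responses of the clones differed from each other in 1 gene, Fcmr, with a log2 difference of −1.50 (#A-59 minus #B-20). Groups of 2 libraries are too small to look for single outlying values.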

How the results depend on the processing

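The mean interaction was called in 39 genes and in 79 without a filter on low counts, 60 with the replicate block and GC offset, 63 at an FDR under 0.05 with the limit on size, 88 at an FDR under 0.01 without it, and 12 when both clones' own terms had to be called. Leaving out 1 library gave 17 to 54, with 17 without replicate 2 of parental cells at 0 h and 21 without replicate 2 at 6 h. The 13 higher genes became 24 with DESeq2, 39 without a filter, 22 with the replicate block and 22 with block and GC offset, and 4 to 25 with 1 library left out. The 26 lower genes became 40 without a filter and 12 to 31 with 1 library left out. The higher share was 33.3% of calls, 46.2% with DESeq2, 49.4% without a filter and 19.2% to 53.1% with 1 library left out. The 239 genes at an FDR under 0.05 became 368 with DESeq2, 449 without a filter, 382 with the replicate block, 595 with block and GC offset, and 76 to 548 with 1 library left out (76 without replicate 2 of parental cells at 0 h, 548 without replicate 2 of #A-59 at 6 h).

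In #A-59, 52 genes became 81 with DESeq2, 107 without a filter, 34 with the 12 libraries alone, 85 with block and GC offset and 13 to 104 with 1 library left out. In #B-20, 20 became 34 with DESeq2, 65 without a filter, 34 with the replicate block, 36 with block and GC offset and 2 to 30 with 1 library left out. The 1 gene that differed between the clones became 7 with DESeq2, 16 without a filter, 6 with the replicate block, 7 with block and GC offset and 0 to 9 with 1 library left out. The parental response (402 genes) fell to 254 with at least 10 counts in every library and was 240 to 411 with 1 library left out. The response of #A-59 (213) was then 110 to 306. That of #B-20 (59) was 97 without a filter, 94 with block and GC offset and 27 to 66 with 1 library left out.

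The sign changed only for genes near 0 or with few counts, none of them called. Tfe3 was at 0.00 with the GC offset and at 0.00 with block and GC offset, and −0.05 to 0.14 with 1 library left out. Cxcr4 was at 0.01 with at least 10 counts and 0.00 with the GC offset, and −0.18 to 0.17 with 1 library left out. With 1 library left out H2-Ab1 ranged from −1.79 to 1.24, Serpinb6b from −3.12 to 0.22, Frmd4a from −0.48 to 0.31 and Sgk1 from −0.51 to 0.67. The cause was not tested in any case.

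The replicate numbers were not taken as pairs. Differences between replicates correlated from −0.026 to 0.308 between groups (median 0.08, 5 of 15 pairs of groups over 0.1), and the replicate block gave 53 called genes in the mean interaction. When a library was left out, the lone library of its group was assumed to vary like the other groups. With 2 libraries per group, and 1 clone per mutant line, small differences were not detectable and effects of a clone and of TFEB cannot be told apart.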
